A study of Arabidopsis thaliana with 12 samples.

Results

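Roots and leaves of the *pi4kß1ß2* double mutant of *Arabidopsis thaliana* were compared to see which organ differences in transcript level are present in plants with insertions in both kinase genes. The comparison used the 3 root and the 3 leaf libraries labelled *pi4kß1ß2*, that is 6 of the 12 libraries of the study, and the 20413 of 37336 counted genes that reached 1 CPM (counts scaled to a fixed library total) in at least 3 of these 6 libraries. The other 6 libraries, 3 of WT roots and 3 of WT leaves, served only to ask whether an organ difference was the same size in Col-0 plants. All plants were 7 days old and grew at 22 °C with 16 h of light and 8 h of dark, and the root material is described as grown on an agar medium with sucrose. The double mutant combines a T-DNA insertion in *PI4Kß1* with another in *PI4Kß2*, so no result can be assigned to either gene alone. RNA of the root libraries came from pools of many plants. How the leaf tissue was collected is not given in the sources used here. The libraries are called replicates by their labels, and p-values measure the spread between them.

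PI4Kß1 and PI4Kß2 are type III phosphatidylinositol 4-kinases, which make the membrane lipid phosphatidylinositol 4-phosphate and act at the trans-Golgi network in secretion and in cell plate formation. Roots and leaves share a genome but divide the work of the plant. Leaves capture light, fix carbon, recycle the products of photorespiration and export sugar, and roots take up water and ions through a surface enlarged by root hairs and sealed inside by the Casparian strip and suberin. Transcripts for these tasks are among the most organ-specific of a seedling.

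The targeted genes were examined first. *PI4Kß1* (AT5G64070) was at 79.1, 53.3 and 51.1 normalized CPM in mutant leaves 1, 2 and 3 and 48.5, 47.3 and 48.5 in mutant roots, against 61, 47.7 and 68.2 in WT leaves and 73.4, 79 and 71.1 in WT roots. *PI4Kß2* (AT5G09350) was at 11, 6.33 and 6.72 CPM in mutant leaves, 7.18, 7.49 and 6.65 in mutant roots, 11.8, 4.68 and 12.1 in WT leaves and 14.6, 16.2 and 14 in WT roots. *MRD1* (AT1G53480) separated the root genotypes further, at 0.667, 1.44 and 0.334 CPM in mutant roots and 43.3, 45.1 and 46.4 in WT roots, and was at 46.4, 1.08 and 1.21 in mutant leaves and 44.2, 0.851 and 46.1 in WT leaves. For all 3 genes the library labelled *pi4kß1ß2* leaf 1 lay nearer to WT leaves 1 and 3, and the library labelled WT leaf 2 nearer to mutant leaves 2 and 3, so both go against their labels. Reads were counted at both kinase genes in every mutant library, and whether they come from truncated transcripts was not tested. In what follows, "mutant leaf 1" is the library labelled *pi4kß1ß2* leaf 1 and "WT leaf 2" the library labelled WT leaf 2; they are called the 2 doubted leaf libraries. Many of the results below are also given without them. Here and below, values listed in threes are replicates 1, 2 and 3 in that order, CPM are scaled by the trimmed mean of M values (TMM) over all 12 libraries, and log2 fold changes were fitted and tested by quasi-likelihood in edgeR, with p-values adjusted over all genes tested by the method of Benjamini and Hochberg.

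The mutant leaf libraries held 38116716 to 38495870 gene counts and the mutant root libraries 40710073 to 46577151, so depth was close between organs. Markers of the other organ were present to unequal degrees. The summed level of the 34 photosynthesis genes in mutant roots was at most 0.432% of its mean in mutant leaves. The root stem cell regulator *PLT1* in mutant leaves 1, 2 and 3 was at 9.11, 16.1 and 14.3% of its mean in mutant roots, and the root cap regulator *SMB* at 6.18, 14.9 and 13.8%. In WT leaves *PLT1* was at 13.0, 27.0 and 15.6% of its mean in WT roots. The part of root tissue or of true leaf expression in these values was not tested, and in bulk tissue a change in the number of cells of a type cannot be told apart from a change in RNA per cell. The largest fitted log2 fold change towards roots was 4.95 and the largest towards leaves was -12.93.

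At an adjusted p-value under 0.05, 8017 genes were higher in mutant roots (39.3% of those tested) and 8026 higher in mutant leaves (39.3%). With a log2 fold change past 1.5 as well, 2147 genes were higher in roots (10.5%) and 3354 higher in leaves (16.4%). The 3 root and 3 leaf values did not overlap for 83.3% of the genes tested. Without mutant leaf 1 the counts were 8175 (40.0%) and 8048 (39.4%). In WT, 36.3% of genes were called higher in roots and 37.4% higher in leaves, 73.7% in all, against 78.6% in the mutant. Scaling by library size alone moved the median of all genes from 0.00 to 0.57 and gave 12634 genes higher in roots and 4727 higher in leaves. The 100 most counted genes took 24.4 to 25.8% of counts in mutant leaves and 12.1 to 12.4% in mutant roots. Members of 17 gene lists, chosen with earlier results of these data known, are described in turn and are plotted by list.

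**Figure D1:**
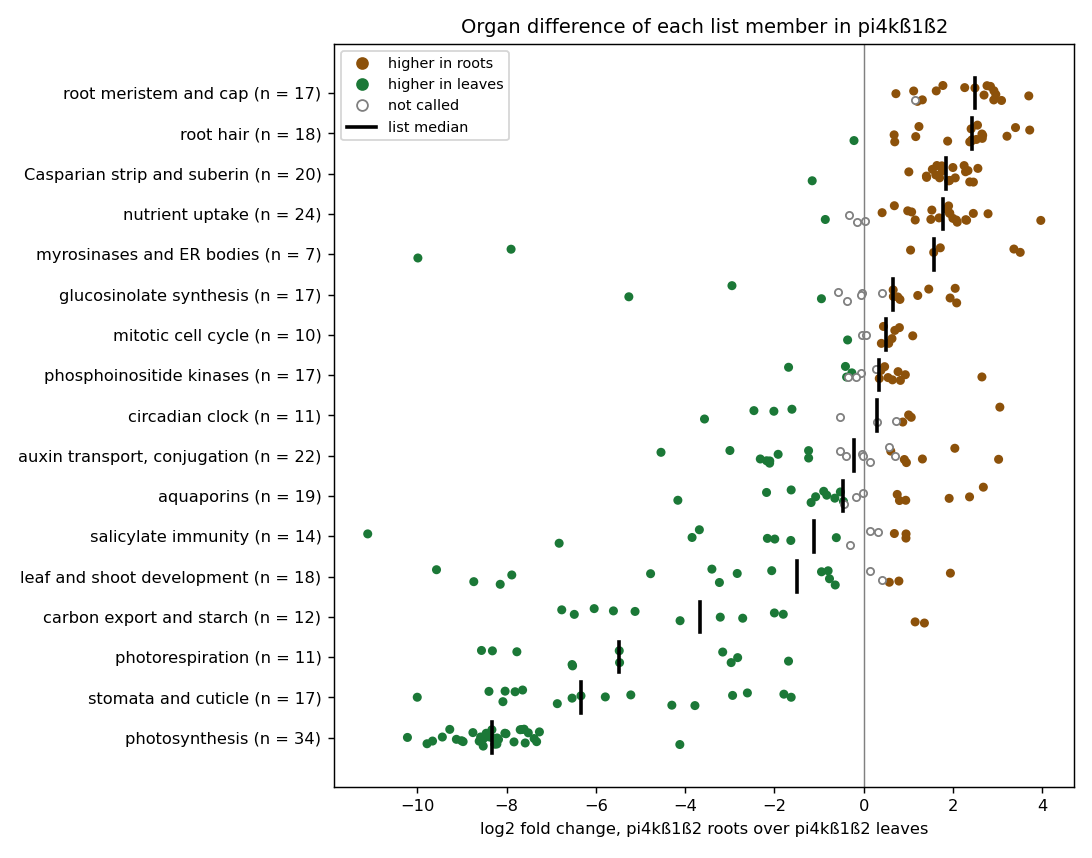
Log2 fold change between mutant roots and mutant leaves (horizontal axis) for the tested members of 17 gene lists (vertical axis, ordered by median). Each point is a gene, coloured by the organ in which it was higher at an adjusted p under 0.05 and white where it was not called, and black bars are list medians, which run from -8.33 for photosynthesis to 2.50 for root meristem and cap.

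Photosynthesis genes had the most negative median of the 17 lists. All 34 listed genes were tested and all 34 were higher in mutant leaves (background 39.3%), with a median log2 fold change of -8.33, against a median of 0.00 over all genes tested. *RBCS1A*, which encodes a small subunit of Rubisco, the carbon-fixing enzyme, was at 17796, 15345 and 16729 CPM in mutant leaves and 16.6, 33.7 and 21.6 in mutant roots. Its log2 fold change was -9.44 ± 0.36 (SE, adjusted p = 2.89e-06). *RBCS3B* was at 9317, 7798 and 7990.5 CPM in leaves and 4.04, 17.4 and 7.21 in roots, and *RBCS1B* at 992, 674 and 589.9 and 0.491, 0.955 and 0.457. The small subunit genes are close copies, and reads that matched several places had been removed, so the split of counts among them is uncertain. *LHCB1.3*, a chlorophyll-binding antenna protein of photosystem II, was at 15677, 16054 and 18062 CPM in leaves and 34, 65.4 and 36.1 in roots. *LHCA1* and *LHCA4*, antenna proteins of photosystem I, had log2 fold changes of -8.46 ± 0.34 and -7.58 ± 0.16. *PSBS*, needed for the dissipation of excess light energy, was at 1981, 1575 and 1634 CPM in leaves and 3.69, 5.18 and 5.24 in roots. Per kilobase of exon, *LHCB1.3* and *RBCS1A* were the highest of the named photosynthesis genes in mutant leaves, at 13494 and 13110.0 CPM per kb. Mutant root 2 had the highest root value for *RBCS1A*, *RBCS3B*, *LHCB1.3* and *LHCA1*, as it did for the summed list, which was at 704 CPM there and 408 and 482 in roots 1 and 3.

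Many photosynthesis genes had a larger organ difference in the mutant. The genotype by organ interaction, which is the mutant log2 fold change minus the WT one, was negative and called for 20 of the 34 genes and positive for none, where 12.1% of all genes tested had a negative and 10.3% a positive interaction. *PSBS* had an interaction of -1.83 ± 0.21 (adjusted p = 0.000676) and *LHCA4* of -1.40 ± 0.16 (adjusted p = 0.000657). *LHCA4* was at 11212, 10223 and 10639 CPM in mutant leaves and 49.1, 65.9 and 52.7 in mutant roots, with 6803, 6505 and 6116 in WT leaves, below all mutant leaves, and 85.9, 99.5 and 83.4 in WT roots, above all mutant roots. Without mutant leaf 1 and WT leaf 2 the count was 11 of 34 (18.7% of all genes were negative), and the interaction of *LHCA4* was -1.37. The list took 12.9 to 13.8% of the counts in mutant leaves and 11.1 to 12.2% in WT leaves, and its summed level was 408 to 704 CPM in mutant roots and 730 to 1179 CPM in WT roots.

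Photorespiration recovers the carbon lost when Rubisco fixes oxygen, and its enzymes work in chloroplasts, peroxisomes and mitochondria. Of its 12 listed genes 11 were tested and all 11 were higher in mutant leaves, with a median log2 fold change of -5.47 (39.3% of all genes were higher in leaves). *GLO1*, a peroxisomal glycolate oxidase, was at 1494, 1308 and 1373 CPM in leaves and 2.24, 6.07 and 2.8 in roots. *GLDH1*, the H protein of the mitochondrial glycine decarboxylase, was at 812, 728 and 727 and 1.79, 2.84 and 2.48. *SHM1*, the mitochondrial serine hydroxymethyltransferase, was at 3379, 2661 and 2811 and 27.8, 36.4 and 32.3. The peroxisomal aminotransferases *GGT1* and *AGT1* were at 47.1, 53.3 and 51.5 and at 17.4, 18.9 and 16.5 CPM in mutant roots, with log2 fold changes of -5.47 ± 0.14 and -6.53 ± 0.20. *CAT2*, the leaf peroxisomal catalase, was at 833, 616 and 594 CPM in mutant leaves and 213, 208 and 216 in mutant roots, while WT leaves had 353, 331 and 371 and WT roots 225, 244 and 259.7. Its organ difference of -1.68 ± 0.14 in the mutant was therefore larger than the -0.53 of WT (interaction -1.15 ± 0.16, adjusted p = 0.00149). *SHM1* also had a larger difference in the mutant (interaction -1.32 ± 0.19, adjusted p = 0.0014), as did 7 of the 11 genes in all, with or without the 2 doubted leaf libraries, where 11.4% of all genes were of this kind. *AGT1* kept its difference, with an interaction of -0.02 ± 0.29.

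Genes for the export and storage of fixed carbon were mostly leaf genes, and 6 of 12 had a larger organ difference in the mutant (11.4% of all genes). Of the 12 listed genes 10 were higher in mutant leaves and 2 in mutant roots (39.3% of all genes each way), with a median log2 fold change of -3.66. Negative interactions were called for 6 of the 12 with all libraries and for 8 without the 2 doubted leaf libraries (12.1% and 18.7% of all genes). *TPT*, which moves triose phosphate out of the chloroplast, was at 1686, 1294 and 1339 CPM in leaves and 11.9, 14.4 and 13.5 in roots. *SWEET11*, a sucrose exporter of the phloem, was at 127, 117 and 132 CPM in mutant leaves and 1.08, 1.89 and 1.25 in mutant roots, and WT roots had 9.84, 8.95 and 9.67. The mutant difference of -6.48 ± 0.21 exceeded the WT one of -3.54 (interaction -2.93 ± 0.31, adjusted p = 0.000533). Its partner *SWEET12* was at 39.3, 41 and 42.8 CPM in mutant leaves and 4.91, 4.14 and 4.26 in mutant roots, with an interaction of -1.04 ± 0.10 (adjusted p = 0.000302). *SUC2* loads sucrose into companion cells. It was at 77.9, 51.5 and 58.5 CPM in mutant leaves, 16.2, 17.7 and 13.2 in mutant roots, 61.1, 51 and 71.7 in WT leaves and 55.5, 53.8 and 53.7 in WT roots. The organ difference, not called in WT (log2 fold change -0.17), was -2.00 ± 0.18 in the mutant, and the interaction was -1.82 ± 0.24 (adjusted p = 0.00112). For these phloem genes mutant roots were the group apart, while mutant and WT leaves overlapped.

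Starch genes differed instead in the leaves. *GBSS1*, the starch synthase that makes amylose, was at 146, 101 and 88.9 CPM in mutant leaves and 29.1, 31.8 and 27 in WT leaves, and stayed under 3 CPM in all 6 root libraries. *SEX1*, the glucan water dikinase that opens starch to breakdown, was at 207, 163 and 203 CPM in mutant leaves and 401, 371 and 387 in WT leaves, with 58.9, 55.1 and 50.8 in mutant roots. The interactions had opposite signs, -1.46 ± 0.28 for *GBSS1* (adjusted p = 0.00554) and 1.17 ± 0.14 for *SEX1* (adjusted p = 0.000837). All 3 mutant leaf libraries, leaf 1 included, lay apart from all 3 WT leaf libraries for both genes. *APL1* and *ADG1*, subunits of ADP-glucose pyrophosphorylase, were higher in mutant leaves, with log2 fold changes of roots over leaves of -6.04 ± 0.18 and -2.71 ± 0.09.

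**Figure D2:**
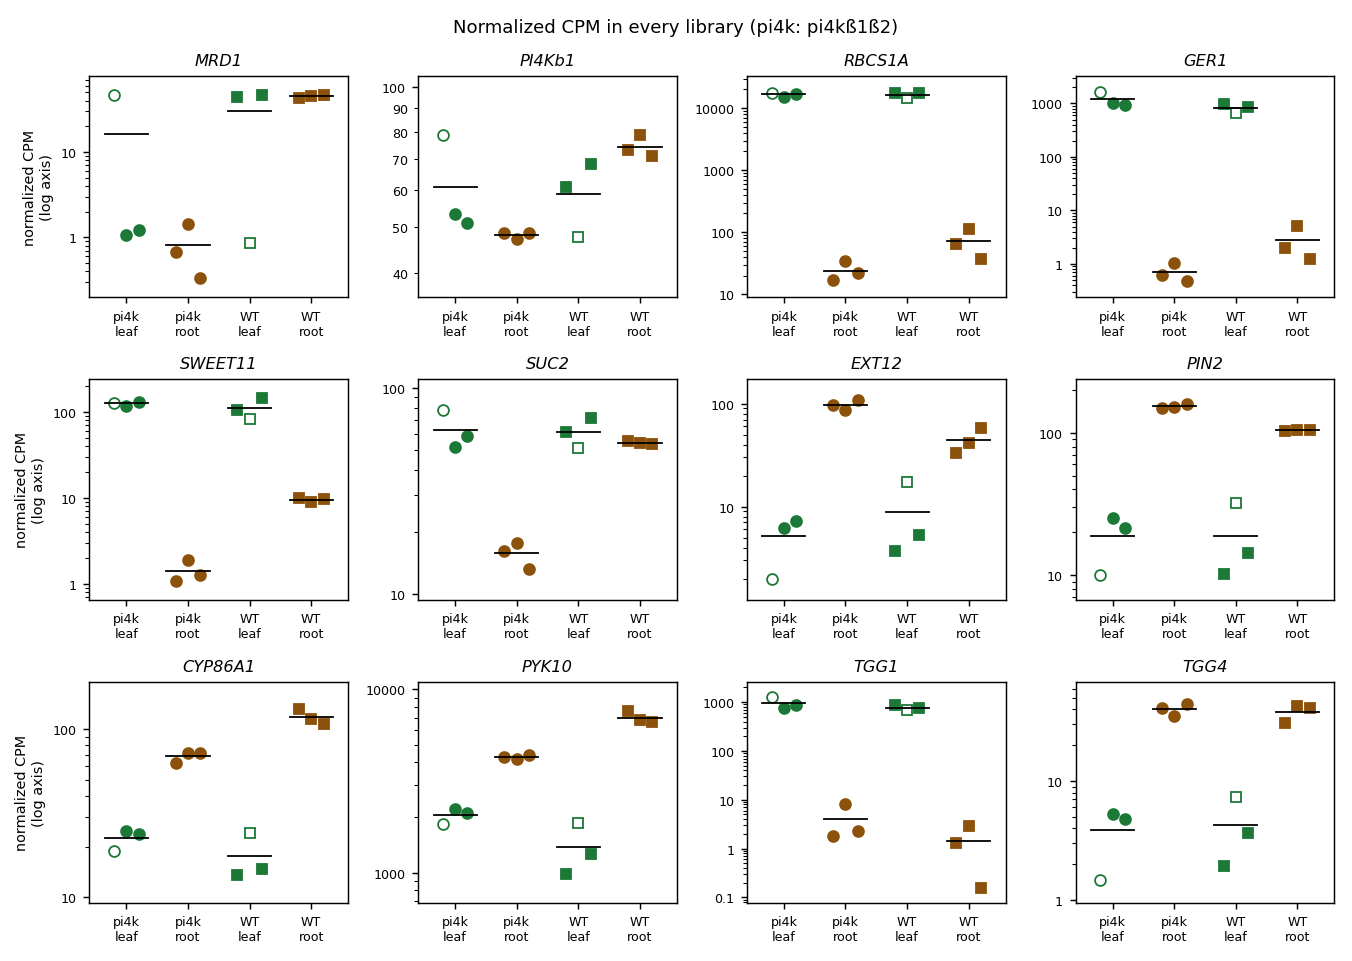
Normalized CPM (vertical log axes) of 12 genes in each library, grouped by genotype and organ, with open symbols for the libraries labelled *pi4kß1ß2* leaf 1 and WT leaf 2 and bars for group means. The open symbols lie with the other genotype for *MRD1* and *PI4Kß1*, and mutant roots stand below the other groups for *SWEET11* and *SUC2*.

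All 17 tested genes of stomata and cuticle were higher in mutant leaves, with a median log2 fold change of -6.33. *EPFL9*, a secreted peptide that promotes stomata, was at 25.1, 21.4 and 21.3 CPM in leaves and 0.0196, 0 and 0.0352 in roots, where its highest count was 2. *FAMA*, a regulator of guard cell identity, was at 18.7, 10.5 and 12.4 and 0, 0.102 and 0.0176. *SLAC1*, the guard cell anion channel, was at 4.49, 1.85 and 2.63 and 0.0589, 0.0812 and 0.0176. The lipid transfer protein gene *LTP1* of the epidermis was at 794, 821 and 836 CPM in leaves and 9.54, 11 and 9.9 in roots, and its difference was kept, with an interaction of 0.09 ± 0.27. Among the wax genes, *CER6*, a fatty acid elongase, had a log2 fold change of -4.30 ± 0.21 and *CER3* of -1.79 ± 0.20. *PDF2*, an epidermal homeodomain regulator, was at 70.6, 50.5 and 59.2 CPM in leaves and still 20.3, 20.3 and 18.1 in roots. With all libraries 1 of the 17 had a called interaction (22.4% of all genes). Without the 2 doubted leaf libraries 3 had (32.0%), *CER6* (1.18, adjusted p = 0.00133) and *PDF2* (0.63, adjusted p = 0.003) among them.

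Regulators of leaf and shoot development were mixed. Of 18 tested genes, 13 were higher in mutant leaves and 3 in mutant roots (39.3% of all genes each way). Called interactions numbered 3 positive and 4 negative (10.3% and 12.1% of all genes), and 5 and 4 without the 2 doubted leaf libraries (13.3% and 18.7%). The YABBY regulators, which mark the lower leaf side, were near 0 in roots. *YAB1* was at 36.2, 34.9 and 38.4 CPM in leaves and 0.157, 0.0406 and 0.0528 in roots, and *YAB3* at 41.7, 36.4 and 43 and 0.236, 0.0609 and 0.123. The upper-side regulators *PHB* and *REV*, which also pattern the root vasculature, went the other way, with *PHB* at 31, 40.3 and 39 CPM in leaves and 63.1, 65.5 and 62.6 in roots and *REV* at 29.2, 37.5 and 38.9 and 51, 53.2 and 53.4. *GIF1*, a growth co-activator, was at 10.8, 18.3 and 17.2 and 65.8, 56.5 and 56.2, the largest root excess on the list at 1.95 ± 0.20. *AS2*, a regulator of leaf polarity, did not pass the test in the mutant, at 1.39, 1.76 and 1.83 CPM in leaves and 1.98, 1.85 and 1.72 in roots. WT leaves had 2.68, 2.32 and 2.5 and WT roots 1.15, 0.642 and 1.09, and the interaction was 1.54 ± 0.30 (adjusted p = 0.00596).

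Among genes at 10 CPM or more on average in mutant leaves with groups that did not overlap, the 10 with the most negative fitted fold changes were outside the photosynthesis list. Of these, *PCC1*, named for control by pathogens and the clock, was at 10.9, 40.4 and 18.4 CPM in leaves and had no count in any root library, so it was at least 381-fold higher in leaves when each root library is set to 3 counts. *CRK12*, a receptor-like kinase, was at 17.6, 13.1 and 6.5 CPM in leaves with no root count (at least 203-fold). *PCR1*, of the cadmium resistance family, was at 7, 22.1 and 4.77 (at least 185-fold), and *AT1G62630*, annotated as a CC-NBS-LRR resistance protein, at 12.8, 9.05 and 9.97 (at least 174-fold). The leaf libraries were spread widely for *PCC1* and *PCR1*, and the highest was leaf 2 in both. *PR1*, a marker of salicylate responses, was at 15.6, 38.6 and 7.68 CPM in mutant leaves with 1 root count in all. *CRR7*, needed for the chloroplast NDH complex, was steadier at 32.9, 26.3 and 25.3 CPM in leaves and 0.0393, 0 and 0 in roots. *AT5G48490*, a lipid transfer protein, was at 44.6, 25.7 and 22.3 and 0, 0.0203 and 0.0176, *AT1G13650*, of unknown function, at 23.1, 13.8 and 14.5 and 0, 0.0203 and 0, and *AT1G56520*, annotated as a TIR-NBS-LRR resistance protein, at 20.1, 12.4 and 6.94 and 0.0196, 0 and 0. In all, 28 tested genes had no count in any mutant root library. *GER1*, a germin-like protein of the cell wall, was the 1 abundant gene of the 10, at 1654, 1020.5 and 939 CPM in leaves and 0.628, 1.06 and 0.475 in roots, a log2 fold change of -10.72 ± 0.44 (adjusted p = 3.72e-06). WT roots had 2.02, 5.17 and 1.25 CPM. Its interaction of -2.51 ± 0.68 (adjusted p = 0.0256) was -2.08 without the 2 doubted leaf libraries (adjusted p = 0.0843), and the call was also lost without mutant root 1 or 3.

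On the root side the 10 named genes were likewise those with the largest positive fold changes at 10 CPM or more in mutant roots. Extensins are hydroxyproline-rich glycoproteins that cross-link walls, and 6 of these 10 genes were extensins or extensin-like. *EXT12* (AT4G13390, chromosome 4, 7783791 to 7785366, plus strand, TAIR10.1) was at 1.97, 6.21 and 7.18 CPM in mutant leaves and 96.2, 85.7 and 109 in mutant roots. Its log2 fold change was 4.23 ± 0.43 (adjusted p = 0.000189) and 3.86 without mutant leaf 1. *EXT13* (AT5G35190) was at 2.86, 6.14 and 8.79 and 102, 84.7 and 121, *EXT6* at 2.55, 7.35 and 8.64 and 88.5, 78.8 and 108, and *HRGP1* at 10.6, 20.9 and 26.8 and 283, 245 and 327. *AT3G28550* was at 501, 449.9 and 571 CPM in roots and 16.7, 33.6 and 36.1 in leaves, and *AT5G06630* stood at 51.3, 46 and 62.9 and 1.36, 3.55 and 4.68. In each of the 6 genes mutant leaf 1 was the lowest leaf library. Extensin genes hold repeats and resemble each other, so their counts are uncertain where reads could not be placed. None of the 6 had a called interaction, with or without the 2 doubted leaf libraries.

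Because *EXT12* and *EXT13* lie on different chromosomes and had like values, the 300 bases before their annotated starts (RefSeq, TAIR10.1, both on the plus strand) are shown. *EXT12* is taken from chr4:7783491-7783790 and *EXT13* from chr5:13433851-13434150. Capitals mark TTAGCACGT, a word picked after the sequences were read.
EXT12: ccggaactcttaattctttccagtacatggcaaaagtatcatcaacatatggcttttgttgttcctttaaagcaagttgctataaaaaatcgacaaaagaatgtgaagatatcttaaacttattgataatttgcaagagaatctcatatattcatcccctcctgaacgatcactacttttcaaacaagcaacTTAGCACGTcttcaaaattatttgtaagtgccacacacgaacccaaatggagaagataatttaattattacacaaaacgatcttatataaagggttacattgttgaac
EXT13: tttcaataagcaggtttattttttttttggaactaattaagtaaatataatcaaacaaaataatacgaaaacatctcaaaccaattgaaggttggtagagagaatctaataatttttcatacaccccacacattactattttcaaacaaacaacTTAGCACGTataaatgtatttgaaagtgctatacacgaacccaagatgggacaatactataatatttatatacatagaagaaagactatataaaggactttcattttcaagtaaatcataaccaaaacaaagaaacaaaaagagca
The word began 108 bases before the start of *EXT12* and 146 before that of *EXT13*. Searched on both strands, it was in 6 of the 13 genes annotated as proline-rich extensin-like and higher in mutant roots past 1.5, which are *EXT6*, *EXT12*, *EXT13*, *AT4G08400*, *AT4G08410* and *AT5G06630*. Since the word was picked from *EXT12* and *EXT13*, their 2 matches were fixed in advance. It was in 0.131% of the 300-base windows of all tested coding genes. Among genes past 1.5 it was in 8 of 2091 windows of those higher in mutant roots (0.383%) and 2 of 3203 of those higher in mutant leaves (0.0624%). The 8 include the 6 extensin-like genes, *EXT12* and *EXT13* among them, so the root share is not separate from the count above. A match is a description of the letters and not a site.

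The remaining root genes of the 10 serve uptake, lipids and the wall. *HAK5*, the high-affinity potassium transporter, was at 3.23, 9.2 and 8.05 CPM in mutant leaves and 109.5, 134 and 79.9 in mutant roots, a log2 fold change of 3.97 ± 0.41. *CEL5*, a cellulase of the root cap, was at 1.33, 2.38 and 2.66 and 29.8, 30 and 32.6. Its log2 fold change of 3.85 ± 0.22 ran from 1.55 to 4.41 over the alternative settings, so its place among the 10 depends on processing. *AT1G23160*, of the GH3 family, was at 0.374, 1.33 and 0.867 and 15.7, 13.5 and 14. *MRN1*, the marneral synthase of a root triterpene cluster, was at 1.05 to 2.59 and 27.3 to 29.5, while WT roots had 89.4, 82.9 and 69. Its difference was smaller in the mutant than in WT (3.86 against 6.03, interaction -2.17 ± 0.49, adjusted p = 0.012, and -3.13 without the 2 doubted leaf libraries).

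Of 18 root hair genes, 17 were higher in mutant roots and 1 in mutant leaves (39.3% of all genes each way), with a median log2 fold change of 2.43. *LRX1*, a chimeric extensin of the hair wall, was at 2.65, 4.29 and 6.41 CPM in leaves and 56.7, 51.5 and 69 in roots. *PRP3*, a proline-rich hair wall protein, was at 6.12, 14.2 and 17 and 131, 108 and 158. *PIP5K3*, a phosphatidylinositol 4-phosphate 5-kinase of the hair tip, which uses the product of PI 4-kinases, was at 0.748, 1.67 and 1.7 and 9.81, 6.62 and 9.65, with a log2 fold change of 2.65 ± 0.33 and 2.23 in WT. *CSLD3*, a cellulose synthase-like protein, and *RHD4*, a phosphatidylinositol 4-phosphate phosphatase, were kept, with interactions of 0.03 ± 0.21 and -0.09 ± 0.06. *RABA4B*, a small GTPase that recruits PI4Kß1 to hair tip vesicles, was the exception. It was at 52.1, 48.9 and 47.2 CPM in mutant leaves and 42, 42.5 and 43.3 in mutant roots, a log2 fold change of -0.21 ± 0.05 (adjusted p = 0.00949), which was 0.36 when scaled by library size alone. Of the 18 genes, 6 were kept and 11 had an interaction too wide to place, and *RABA4B* had the 1 called interaction. Without the 2 doubted leaf libraries 10 were kept, 5 were too wide to place and 3 had a called negative interaction (18.7% of all genes).

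Meristem and root cap regulators were mostly root genes. Of 17 tested, 16 were higher in mutant roots (39.3% of all genes), and the exception, *LBD29*, a lateral root regulator, was not called. The cap regulators *SMB* and *FEZ* were at 10.8, 11.2 and 11 and 2.85, 2.92 and 2.62 CPM in mutant roots and 0.68, 1.64 and 1.52 and 0.102, 0.309 and 0.217 in mutant leaves. *PLT3*, a stem cell regulator, was at 64.7, 66.8 and 58.6 and 7.75, 15.8 and 15.9, and *WOX5*, of the quiescent centre, at 2.65, 3.7 and 3.52 and 0.68, 1.61 and 1.64. *SHR* and its partner *JKD*, which specify the ground tissue, had log2 fold changes of 1.12 ± 0.19 and 1.21 ± 0.17, both kept. *SCR*, the target of SHR in the endodermis, was at 27.5, 29.7 and 31.4 CPM in mutant leaves and 47.8, 47.3 and 51.3 in mutant roots, whereas WT had 41.4, 43.3 and 43.2 in leaves and 42.2, 43.4 and 43.8 in roots. The organ difference of 0.72 ± 0.07 was thus seen in the mutant and not called in WT (interaction 0.71 ± 0.08, adjusted p = 0.000605). Without the 2 doubted leaf libraries 7 of 18 had a called negative interaction (18.7% of all genes), against 1 with all libraries.

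Genes of the Casparian strip and suberin, the barriers of the endodermis, had smaller organ differences in the mutant. Of 20 genes, 19 were higher in mutant roots (39.3% of all genes), and *FAR1*, a reductase that makes fatty alcohols, was higher in leaves (51.2, 47 and 84.4 CPM in leaves and 23.7, 32.3 and 26.3 in roots, a call lost when scaled by library size alone). The median log2 fold change was 1.84 in the mutant and 2.78 in WT. *CYP86A1*, a fatty acid hydroxylase, was at 19, 24.7 and 23.9 CPM in mutant leaves and 63.3, 72.2 and 72.1 in mutant roots, and WT roots had 131, 115 and 107. Its interaction was -1.13 ± 0.28 (adjusted p = 0.0167). *CYP86B1*, which acts on very long chains, was at 16.3, 16.7 and 17.7 CPM in mutant and 30.9, 28.2 and 24.7 in WT roots (interaction -1.32 ± 0.31, adjusted p = 0.0137). *FAR5* was at 21.1, 26.9 and 28.3 in mutant and 47.2, 36.5 and 31.9 in WT roots, and *ASFT*, which adds ferulate, at 77.5, 71.5 and 80.5 and 97.5, 91.1 and 86.2. The strip scaffold *CASP2* was at 33.6, 33 and 34.5 CPM in mutant and 47.5, 44.2 and 49.5 in WT roots, and *ESB1*, a dirigent protein of the strip, at 90.4, 88.4 and 91.2 and 121, 120.1 and 135. In these 6 genes, which were picked from the list for naming, no mutant root library reached any WT root library. Genes with root genotypes set apart in this way were not counted over the rest of the list or over all genes. A smaller difference was called for 6 of the 20 genes with all libraries (5.39% of all genes) and for 17 of the 20 without the 2 doubted leaf libraries (14.2%). In the leaf libraries the summed list was at 182, 237 and 263 CPM in the mutant and 310, 339 and 305 in WT.

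**Figure D3:**
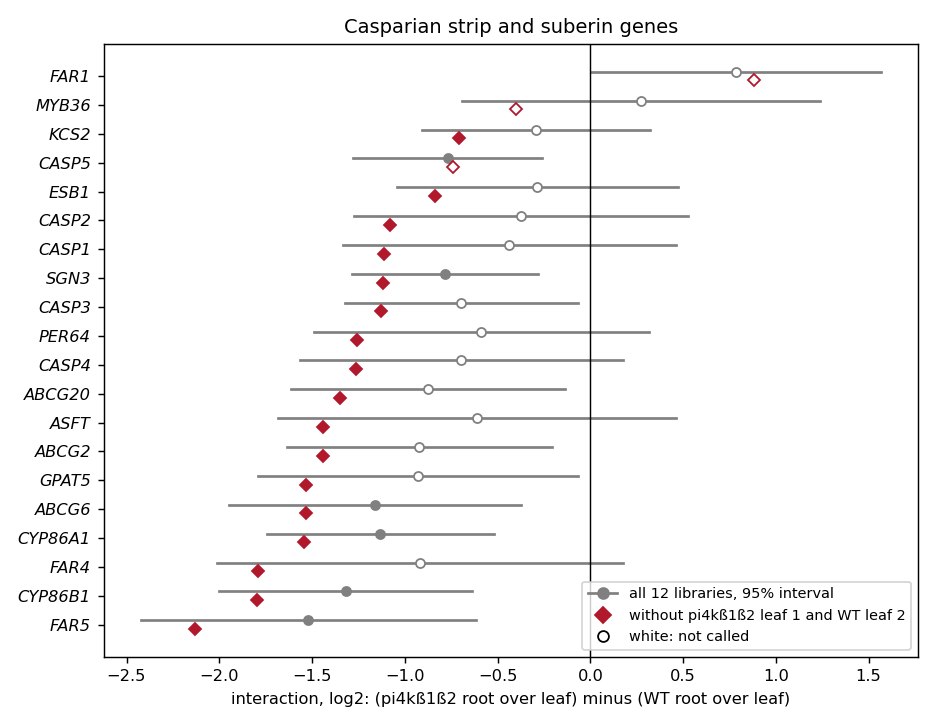
Genotype by organ interaction (log2, horizontal axis) for the 20 Casparian strip and suberin genes, with grey circles and 95% intervals from all 12 libraries and red diamonds without *pi4kß1ß2* leaf 1 and WT leaf 2; white symbols were not called. All genes but *FAR1* lie below 0 without these libraries.

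Of 24 tested uptake genes, 20 were higher in mutant roots and 1 in mutant leaves (39.3% of all genes each way). No interaction was called with all libraries, and 2 positive and 8 negative ones were without the 2 doubted leaf libraries (13.3% and 18.7% of all genes). *AHA2*, the plasma membrane proton pump, was at 446, 682 and 713 CPM in leaves and 1561, 1824 and 1855 in roots, the highest per kb of the named uptake genes in roots at 485 CPM per kb. *SULTR1;2*, the main sulfate uptake carrier, was at 35, 46.7 and 51.4 and 231, 278 and 224. The nitrate transporter *NPF6.3* was at 183 to 209.5 and 258 to 379.6, *NPF7.3*, which loads nitrate into the xylem, at 46.8, 133 and 124 and 323, 434 and 396 (interaction -0.43, adjusted p = 0.663, and -1.41, adjusted p = 0.00155, without the 2 doubted leaf libraries), and *NPF2.4*, a chloride transporter, at 2.14, 1.98 and 1.55 and 15, 13.3 and 10.8. Iron uptake depended on single libraries. *IRT1*, the iron carrier of the epidermis, was at 0.782, 14.4 and 16.2 CPM in mutant leaves and 38.6, 53.5 and 62 in mutant roots, and WT leaves had 0.559, 15.5 and 0.144 and WT roots 10.7, 9.1 and 8.01. The reductase *FRO2* was at 0.918, 6.95 and 6.35 in mutant leaves, 15, 20.9 and 21.4 in mutant roots, 0.823, 6.24 and 0.834 in WT leaves and 4.3, 4.9 and 4.47 in WT roots. Mutant leaf 1 fell with WT leaves 1 and 3 for both genes, and WT leaf 2 fell with mutant leaves 2 and 3. The log2 fold change of *IRT1* was 2.29 ± 0.81 (adjusted p = 0.0388) and 1.75 without mutant leaf 1. That of *FRO2* was 2.00 ± 0.60 (adjusted p = 0.0215). The call was lost for *IRT1* without mutant leaf 2 or any of the mutant root libraries, and for *FRO2* without mutant root 2 or 3. That of *IRT1* was also lost when the mutant organs were compared in a fit of all 12 libraries. Their interactions were 1.52 and 1.22 (adjusted p = 0.544 and 0.457) with all libraries and -2.97 and -0.93 (adjusted p = 0.00562 and 0.0239) without the 2 doubted leaf libraries, so the sign turned. *FIT*, the regulator of both, was at 2.01, 5 and 4.24 CPM in mutant leaves and 12.7, 15.8 and 19.8 in mutant roots, and WT roots had 14.8, 12.9 and 15.7.

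Of 19 aquaporin genes, 5 had a called interaction and fitted organ differences of opposite sign in the 2 genotypes (5.84% of all genes). Without the 2 doubted leaf libraries 4 had (6.67%). These channels carry water across the plasma membrane (PIP) or the vacuole membrane (TIP). In the mutant, 10 were higher in leaves and 6 in roots (39.3% of all genes each way), and the median log2 fold change was -0.45 in the mutant and 0.50 in WT. Scaled by library size alone, the mutant median was 0.12. *PIP2;1* was at 822, 564 and 479 CPM in mutant leaves and 399, 394 and 400.5 in mutant roots, while WT had 454, 504 and 448 in leaves and 678, 723 and 772 in roots. Its log2 fold change was -0.64 ± 0.19 in the mutant (adjusted p = 0.0214, a call lost without any 1 of the mutant root libraries and when scaled by library size alone) and 0.63 in WT, and the interaction was -1.27 ± 0.23 (adjusted p = 0.00399). *PIP2;3* was at 34.4, 21.8 and 18.5 CPM in mutant leaves and 18.2, 18.5 and 18.3 in mutant roots, against 46.5, 49.8 and 53 in WT roots (interaction -1.35 ± 0.25, adjusted p = 0.00537). *TIP2;3*, an ammonia-permeable channel of the root, was at 3.94, 3.3 and 2.91 and 11.9, 12.5 and 14, and WT roots had 43.5, 40 and 45.6 (interaction -1.62 ± 0.16, adjusted p = 0.000448). *PIP2;6*, a leaf channel, was at 394, 345 and 359 and 19.6, 21.5 and 20.4, and *TIP4;1*, a root channel, at 5.64, 16 and 13.2 and 74.3, 68.3 and 82.4. The abundant *TIP2;1*, *TIP1;2* and *PIP1;2* were higher in mutant leaves, with log2 fold changes of roots over leaves of -2.17, -1.18 and -0.89. The summed list was at 3717 to 3985 CPM in mutant roots, and at 6043 to 6906 in WT roots. In leaves it was at 6068 to 7730 in the mutant and 6278 to 7170 in WT. An interaction was called negative for 11 of the 19 genes and positive for 1 (12.1% and 10.3% of all genes), and for 10 and 2 without the 2 doubted leaf libraries (18.7% and 13.3%).

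Myrosinases, which release toxic products from glucosinolates, split by organ. *TGG1* and *TGG2*, of guard and phloem cells, were at 1274, 743 and 889 and 312, 265 and 337 CPM in mutant leaves and 1.84, 8.14 and 2.29 and 0.314, 0.102 and 0.457 in mutant roots. *TGG4* and *TGG5* were at 1.46, 5.25 and 4.83 and 1.26, 3.7 and 3.93 in leaves and 41, 34.9 and 44.2 and 34.5, 30.5 and 37.2 in roots. These 4 differences had interactions of 1.15 ± 0.97, 0.15 ± 0.86, 0.23 ± 0.64 and 0.20 ± 0.57, none called and all too wide to be counted as kept. Without the 2 doubted leaf libraries those of *TGG4* and *TGG5* turned to -0.78 and -0.73, not called either (adjusted p = 0.139 and 0.0742). *PYK10*, the beta-glucosidase that fills the ER bodies of roots, was at 1851, 2219 and 2114 CPM in mutant leaves and 4298, 4150.3 and 4396 in mutant roots, against 986, 1867 and 1269.9 and 7622, 6768 and 6616 in WT. Its organ difference was 1.05 ± 0.09 in the mutant and 2.35 in WT (interaction -1.29 ± 0.27, adjusted p = 0.00749). *NAI1*, which switches on the ER body genes, had a log2 fold change of 1.72 ± 0.15 and *NAI2*, a structural protein of the bodies, of 1.57 ± 0.10. Of the 7 genes of this list, 1 had a called negative interaction with all libraries and 3 had without the 2 doubted leaf libraries (12.1% and 18.7% of all genes).

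Among 17 genes of glucosinolate synthesis, 9 were higher in mutant roots and 3 in mutant leaves (39.3% of all genes each way). Called interactions were 2 negative with all libraries, and 7 negative and 1 positive without the 2 doubted leaf libraries. Over all genes 12.1% were negative with all libraries, and 18.7% negative and 13.3% positive without these 2. The count of smaller differences went from 1 to 8 (5.39% and 14.2% of all genes). In the methionine branch *BCAT4*, the first enzyme of chain elongation, was at 100.1, 133 and 127 CPM in leaves and 321, 350.1 and 320.2 in roots, but *CYP79F1* was a leaf gene at 31.6, 17.1 and 15.9 and 3.3, 2.07 and 2.97, as was the regulator *MYB29* at 6.46, 6.3 and 6.56 and 0.275, 0.0609 and 0.158. *CYP79F2*, of the same subfamily as *CYP79F1*, was higher in roots. It was at 20.7, 45.8 and 42.7 CPM in leaves and 138, 141 and 140 in roots (log2 fold change 1.94 ± 0.29). In the tryptophan branch *CYP81F4*, which modifies indole glucosinolates, was at 78.2, 76.9 and 68.9 and 376, 278 and 298. *CYP83A1* and *CYP83B1*, which act after the CYP79 step, were kept, with log2 fold changes of 0.77 ± 0.08 and 0.66 ± 0.14, but without the 2 doubted leaf libraries *CYP83A1* had a called interaction of -0.62 (adjusted p = 0.00716). *CYP79B3*, which makes indole-3-acetaldoxime, was at 73, 46.7 and 49.1 CPM in mutant leaves and 49.9, 61 and 52.7 in mutant roots, while WT had 46.2, 52.2 and 45 in leaves and 177, 136 and 132 in roots. The mutant difference did not pass the test (-0.05 ± 0.18), the WT difference was 1.63, and the interaction was -1.68 ± 0.25 (adjusted p = 0.00186).

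Of 22 tested genes for auxin carriers and conjugating enzymes, 9 were higher in mutant leaves and 6 in mutant roots, where 39.3% of all genes were called each way. Scaled by library size alone, 9 were higher in leaves and 10 in roots. Negative interactions were called for 5 genes with all libraries and for 9 without the 2 doubted leaf libraries (12.1% and 18.7% of all genes). *PIN2*, the root tip efflux carrier, was at 10, 25.1 and 21.3 CPM in mutant leaves and 148, 153 and 159.7 in mutant roots, a log2 fold change of 3.03 ± 0.33. *PIN3* and *PIN7*, efflux carriers of vascular and bundle cells, were at 241, 197 and 234 and 186, 189 and 262 CPM in leaves and 43.7, 50 and 63 and 75.3, 97.2 and 98.6 in roots. *GH3.9*, of the auxin-conjugating family, was at 6.66, 4.45 and 6.01 and 0.294, 0.244 and 0.193. The influx carrier *AUX1* was at 131, 113 and 128 and 117, 122 and 123, so the mutant organs overlapped, while WT leaves had 95.1, 82.9 and 90.8 and WT roots 121, 118 and 122 (interaction -0.46 ± 0.09, adjusted p = 0.00697). The list's median log2 fold change was -0.22, and 0.36 when scaled by library size alone.

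Of 17 phosphoinositide kinase genes, 9 were higher in mutant roots and 4 in mutant leaves (39.3% of all genes each way), with log2 fold changes from -1.68 to 2.65 and a median of 0.35. The highest was that of *PIP5K3*, given above. Negative interactions were called for 2 genes with all libraries and for 5 without the 2 doubted leaf libraries (12.1% and 18.7% of all genes). *PI4Kα1*, the type III kinase of the plasma membrane that is intact in these plants, was at 58, 60.4 and 68 CPM in leaves and 86.1, 85.8 and 86.9 in roots (0.47 ± 0.07, adjusted p = 0.000884), and it was kept. *FAB1C*, of the phosphatidylinositol 3-phosphate 5-kinase family, was at 61.9, 71 and 72 and 127, 141 and 125. The mutated *PI4Kß1* and *PI4Kß2* did not pass the test between mutant organs, with log2 fold changes of -0.35 ± 0.17 and -0.17 ± 0.22. Without mutant leaf 1 these were -0.11 (adjusted p = 0.0473) and 0.13 (adjusted p = 0.28).

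Salicylate and immunity genes were higher in mutant leaves for 8 of 14 tested and higher in roots for 3 (39.3% of all genes each way). Without mutant leaf 1 these were 6 and 4 (39.4% and 40.0% of all genes). Called interactions went from 2 positive and 1 negative (10.3% and 12.1% of all genes) to 4 and 2 without the 2 doubted leaf libraries (13.3% and 18.7%). *PR5* was at 26.2, 10.4 and 9.72 CPM in mutant leaves and 0.196, 0.0203 and 0.176 in mutant roots, and *WRKY70*, a salicylate-responsive regulator, at 84.6, 77.8 and 72.6 and 6.4, 7.39 and 2.69. *GH3.12* (PBS3), which makes the glutamate conjugate from which salicylate is formed, had an organ difference in WT (-4.30) that did not pass the test in the mutant (0.15 ± 0.46). It was at 4.69, 3.64 and 2.01 CPM in mutant leaves and 5.1, 4.61 and 1.83 in mutant roots, and WT had 2.15, 8.51 and 1.81 in leaves and 0.174, 0.253 and 0.198 in roots (interaction 4.45 ± 0.96, adjusted p = 0.00986, and 3.66 without the 2 doubted leaf libraries). *SAG13*, a senescence and defence marker, was at 10.6, 9.69 and 4.49 and 1.69, 2.09 and 1.78 in the mutant and at 2.06, 5.67 and 3.8 and 0.0869, 0.0194 and 0.0198 in WT (interaction 4.31 ± 0.82, adjusted p = 0.00558). Both genes were higher in every mutant root library than in any WT root library.

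Of 10 mitotic genes, 7 were higher in mutant roots and 1 in mutant leaves (39.3% of all genes each way), and 7 were kept, or 6 without the 2 doubted leaf libraries (35.3% and 35.5% of all genes). The mitotic cyclins *CYCB1;1*, *CYCB1;2* and *CYCB1;4* had log2 fold changes of 0.80 ± 0.08, 0.40 ± 0.07 and 0.64 ± 0.10. The kinase *CDKB2;1* had 0.45 ± 0.06. All 4 lay under 1.5.

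Clock genes had organ differences that depended on genotype. The circadian clock pairs the morning genes *CCA1* and *LHY* with the evening genes *TOC1*, *GI*, *LUX* and *ELF4*, whose transcription CCA1 and LHY repress, and *PRR7* and *PRR5* act in between. Of 11 genes, 4 were higher in mutant roots and 4 in mutant leaves (39.3% of all genes each way). The interaction was called for 9 genes, 6 of them positive and 3 negative (10.3% and 12.1% of all genes). Without the 2 doubted leaf libraries these were 5 and 3 (13.3% and 18.7%). The fitted organ difference had opposite signs in the 2 genotypes for 6 of the 11, where 5.84% of the genes in all 3 fits were of this kind. This class needed a called interaction and a called organ difference in at least 1 genotype. The WT difference was not called for *GI* (-0.08, adjusted p = 0.48) or *LHY* (0.61, adjusted p = 0.14). *TOC1* was at 29.3, 32 and 32.9 CPM in mutant leaves and 82, 63.8 and 52.1 in mutant roots, and at 92.3, 94.2 and 80.1 in WT leaves and 61.5, 83.3 and 74.2 in WT roots. *GI* was at 40.1, 48.2 and 55 and 105, 95.9 and 88 in the mutant and 106, 111 and 110.3 and 88.1, 111 and 110.2 in WT. *LUX* was at 26.2, 33.9 and 33.7 and 71.4, 53.5 and 47.7 in the mutant and 66, 66.9 and 69.3 and 49.1, 60.7 and 62.9 in WT. For these 3 genes mutant leaves were lower than every other library, and mutant roots overlapped WT roots.

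The interactions were 1.35 ± 0.22 for *TOC1* (adjusted p = 0.003), 1.09 ± 0.17 for *GI* (adjusted p = 0.00225) and 1.11 ± 0.22 for *LUX* (adjusted p = 0.00674). *PRR5* was at 8.91, 15.5 and 19.1 CPM in mutant leaves and 29.4, 23.3 and 19.8 in mutant roots, and WT leaves had 71.6, 58.5 and 70.8 (interaction 2.24 ± 0.35, adjusted p = 0.00241). *ELF4* was at 1.8, 3.27 and 3.9 in mutant leaves and 40.9, 18.6 and 15.7 in mutant roots, and at 18.6, 25.1 and 19.4 and 21.6, 43.4 and 48.6 in WT (interaction 2.21 ± 0.60, adjusted p = 0.0268). Without the 2 doubted leaf libraries that p was 0.125, and the call was also lost without mutant leaf 1, mutant leaf 2, mutant root 1 or WT root 1 alone. The morning genes went the other way. *LHY* was at 17.4, 10.8 and 8.52 CPM in mutant leaves and 1.51, 1.91 and 3.24 in mutant roots, and WT leaves had 1.26, 1.87 and 2.16 (interaction -3.07 ± 0.55, adjusted p = 0.00419). *CCA1* was at 43.9, 26.1 and 21.7 and 2.06, 2.6 and 3.06 in the mutant and 19.4, 19.8 and 20.5 in WT leaves (interaction -1.09 ± 0.34, adjusted p = 0.0465, a call lost without any 1 of 8 libraries and with no filter on low counts). *PRR7* was kept, at 196, 159 and 165 in mutant leaves and 42.8, 45.5 and 40.8 in mutant roots (interaction -0.06 ± 0.14).

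In the evening genes and *LHY* the library labelled mutant leaf 1 lay with or beyond mutant leaves 2 and 3, and WT leaf 2 lay with the WT leaves. The 2 libraries that stood with the other genotype for *MRD1* and the kinase genes therefore followed their labels here. The hour at which each organ was harvested is not given in the sources used here, so the part of harvest time in these values was not tested. The same holds for the other genes described above, *GBSS1*, *SEX1* and *CAT2* included.

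**Figure D4:**
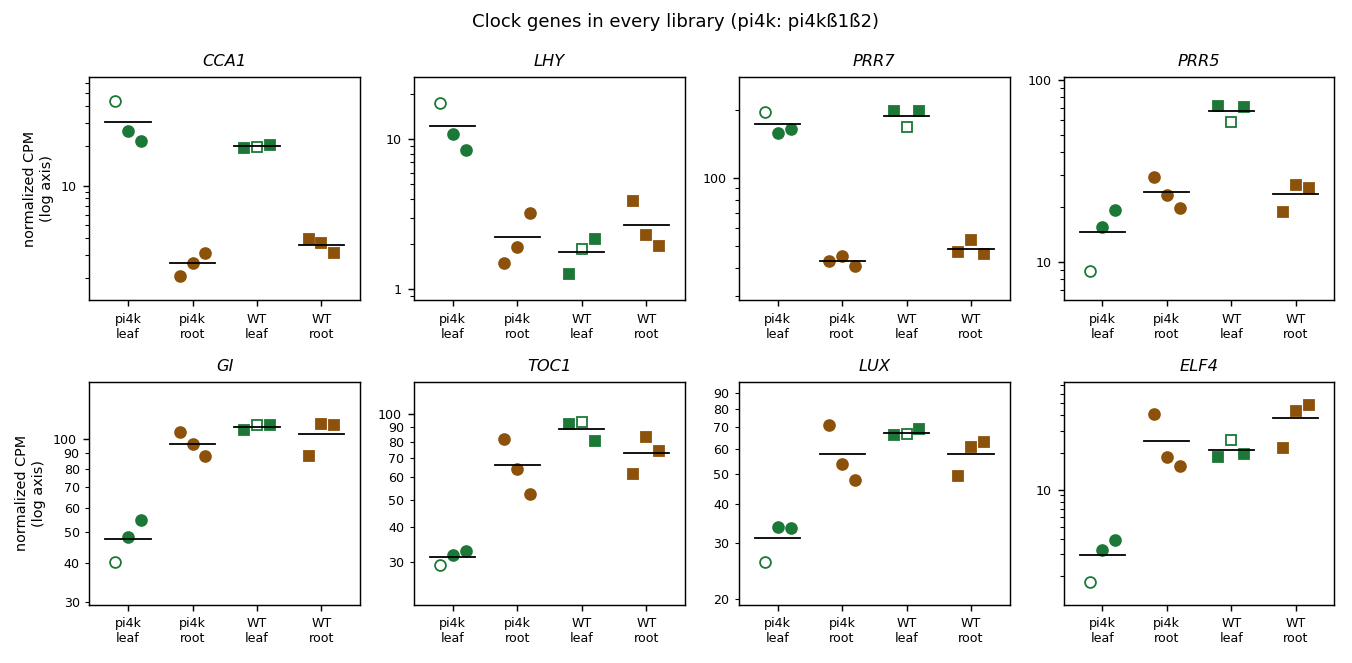
Normalized CPM (vertical log axes) of 8 clock genes in each library, grouped by genotype and organ, with open symbols for the libraries labelled *pi4kß1ß2* leaf 1 and WT leaf 2 and bars for group means. Mutant leaves are below all other libraries for *GI*, *TOC1*, *LUX* and *ELF4* and above all others for *LHY*.

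Evening-phased genes often carry the evening element, AAAATATCT, to which the CCA1 and LHY proteins bind. The 300 bases before the annotated start (RefSeq, TAIR10.1) are shown for the 3 listed clock genes in which a search of both strands found it, with its letters or their reverse complement in capitals. They are *PRR5* from chr5:8358547-8358846 (minus strand), *TOC1* from chr5:24674663-24674962 and *LUX* from chr3:17182742-17183041 (both plus strand).
PRR5: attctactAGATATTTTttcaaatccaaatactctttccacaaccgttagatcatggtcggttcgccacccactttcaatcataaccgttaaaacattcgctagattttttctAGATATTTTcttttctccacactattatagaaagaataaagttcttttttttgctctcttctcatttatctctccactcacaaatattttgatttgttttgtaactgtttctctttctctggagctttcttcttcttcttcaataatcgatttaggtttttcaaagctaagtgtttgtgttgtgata
TOC1: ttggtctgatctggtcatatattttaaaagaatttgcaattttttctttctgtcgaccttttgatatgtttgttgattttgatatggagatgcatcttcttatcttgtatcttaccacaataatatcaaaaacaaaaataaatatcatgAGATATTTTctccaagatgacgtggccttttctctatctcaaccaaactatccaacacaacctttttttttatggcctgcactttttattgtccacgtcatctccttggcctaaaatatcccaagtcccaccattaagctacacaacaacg
LUX: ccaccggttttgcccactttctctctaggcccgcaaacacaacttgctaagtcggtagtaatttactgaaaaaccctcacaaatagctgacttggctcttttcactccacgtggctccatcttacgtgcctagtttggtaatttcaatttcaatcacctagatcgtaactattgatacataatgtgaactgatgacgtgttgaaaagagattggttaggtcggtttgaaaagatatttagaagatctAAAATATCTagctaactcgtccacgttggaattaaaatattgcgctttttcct
*PRR5* held it at positions -292 to -284 and -187 to -179 from the start, *TOC1* at -151 to -143 and *LUX* at -53 to -45. It was in 3 of the 11 clock genes and in 2.9% of the windows of all tested coding genes. It was in 3.72% of the windows of genes higher in mutant leaves past 1.5 and in 2.73% of those higher in mutant roots.

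The same classes were counted over all 20105 genes tested in both genotypes. A difference was counted as kept where it was called in the same direction in both genotypes and the 95% interval of the interaction lay within 1 log2 unit of 0. This held for 7092 genes (35.3%), of which 3315 were root genes and 3777 leaf genes in the mutant. A further 3178 were called in the same direction with an interval too wide to say. The difference was larger in the mutant for 2292 genes and smaller for 1083, and for 1175 the fitted signs were opposite with a called interaction. Without the 2 doubted leaf libraries 7134 were kept, 2345 larger, 2860 smaller and 1342 opposite. Of the kept genes 5860 were kept in both fits, and of the smaller ones 983 were smaller in both. The rise in smaller differences without these libraries was mostly on the root side, with 1894 root genes and 966 leaf genes. Mutant and WT share no sample in these contrasts, but the interaction uses both.

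**Figure D5:**
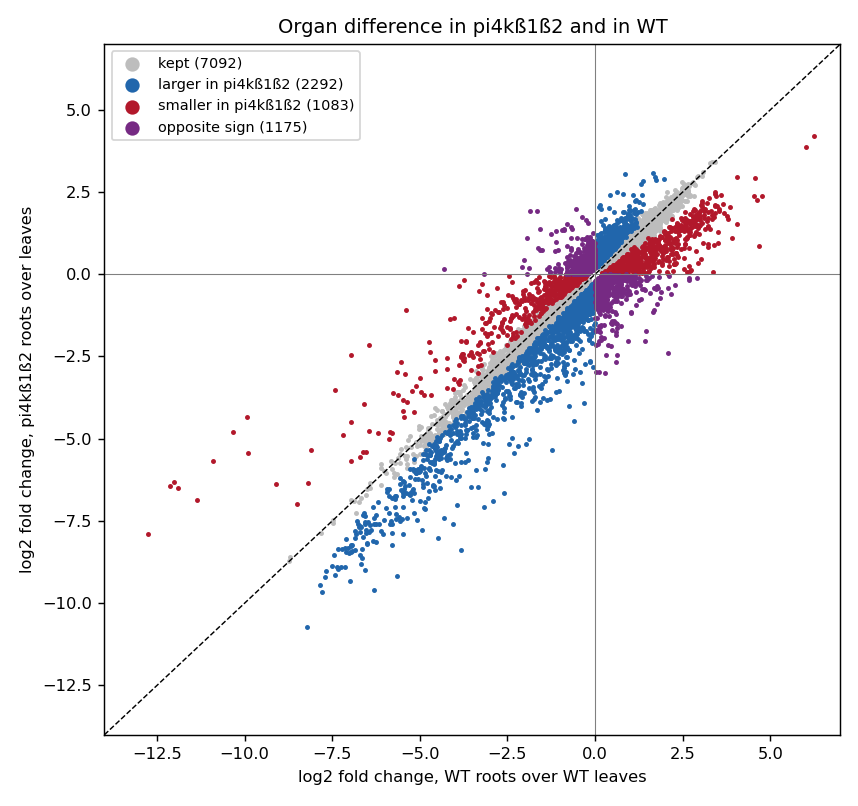
Log2 fold change of roots over leaves in WT (horizontal axis) and in *pi4kß1ß2* (vertical axis) for the genes counted as kept (7092), larger in the mutant (2292), smaller in the mutant (1083) or of opposite sign (1175), with a dashed line of equality. Each point is a gene; the colours follow from the test of the interaction.

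Among the named genes with the largest positive interactions, *DIR5*, a dirigent-like protein, and *CYP71A13*, which makes indole-3-acetonitrile on the way to camalexin, had a root excess in the mutant and did not pass the filter in WT alone. *DIR5* was at 0.136, 0.34 and 0.557 CPM in mutant leaves and 9.42, 7.11 and 6.75 in mutant roots, and WT roots had 0.847, 0.758 and 0.732 (interaction 4.39 ± 0.52, adjusted p = 0.000716). *CYP71A13* was at 1.8, 2.22 and 1.46 and 4.28, 10.2 and 5.12 in the mutant, and WT roots had 0.391, 0.175 and 0.277 (interaction 4.33 ± 0.73, adjusted p = 0.00327, and 3.70 without the 2 doubted leaf libraries). *AT2G30670*, annotated as an NAD(P)-binding Rossmann-fold protein, was a leaf gene in both genotypes, with 0.471, 0.122 and 0.44 CPM in mutant roots and 0, 0.0194 and 0 in WT roots, and *CYP71A22* was at 0.118, 0.102 and 0.0176 and 0, 0 and 0. The other 6 genes belong to the lipid transfer or pollen coat families, and their mutant root level rested on 2 of 3 libraries. *AT4G22485* was at 114, 137 and 161 CPM in mutant leaves and 6.95, 0.0203 and 7.65 in mutant roots, with 0.195, 0.331 and 0.0198 in WT roots. Its interaction of 5.53 ± 1.44 (adjusted p = 0.022) lost its call without mutant root 1 or 3, without WT root 1 or 3, and without the 2 doubted leaf libraries together. *AT4G22505*, *AT4G22513*, *AT4G22517* and *AT4G22520*, which have neighbouring numbers and may share reads with it, and *AT3G05727* were likewise at 1.27 to 4.59 CPM in mutant roots 1 and 3 and at 0 to 0.04 in root 2.

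Among the largest negative interactions, *XTH7*, which remodels wall xyloglucan, had a larger leaf excess in the mutant. It was at 265, 175 and 153 CPM in mutant leaves and 4.93, 4.85 and 4.92 in mutant roots, while WT had 91.6, 84.3 and 137 in leaves and 44.3, 44.3 and 44 in roots. Its log2 fold change was -5.33 ± 0.24 in the mutant and -1.24 in WT (interaction -4.09 ± 0.31, adjusted p = 0.000177). *VSP2*, a jasmonate-responsive storage protein, was at 77.1, 103 and 68.7 and 5.48, 3.86 and 7.1 in the mutant, and at 50.4, 52.4 and 19 and 35.3, 27.8 and 35.1 in WT, where the organs were not called different (interaction -3.61 ± 0.51, adjusted p = 0.00149). *AT4G17470*, an alpha/beta-hydrolase, was at 20.9, 19.4 and 17.7 in mutant leaves and 0.0981, 0.102 and 0.211 in mutant roots, and at 5, 5.76 and 2.7 and 0.608, 0.408 and 0.475 in WT (interaction -3.91 ± 0.48). *SPL3*, a regulator of phase change, was at 7.96, 6.3 and 7.77 CPM in mutant leaves and 0.0589, 0 and 0 in mutant roots, with 0.391, 0.428 and 0.613 in WT roots.

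The beta-glucosidase genes *BGLU1* and *BGLU7* were also on this side. *BGLU1* was at 17.8, 11.5 and 7.68 and 0.0196, 0.0406 and 0.0703 in the mutant and 5.12, 3.88 and 5.29 and 0.434, 0.136 and 0.0791 in WT (interaction -3.55 ± 0.91, adjusted p = 0.0213, lost without mutant root 1 or 2 or WT root 1). *BGLU7* was at 8.87, 1.85 and 2.32 and 0.373, 0.812 and 1.27 in the mutant and 5, 1.19 and 4.26 and 16, 13.7 and 14.3 in WT (interaction -4.47 ± 0.95, adjusted p = 0.0092, and -3.00 without the 2 doubted leaf libraries). *AT1G77520*, an O-methyltransferase, kept the direction but was at 3.42, 3.68 and 4.31 CPM in mutant roots and 34.7, 26.4 and 24.5 in WT roots (interaction -3.83 ± 0.27, adjusted p = 9.6e-05). *AT1G52820*, an oxygenase, was at 2.65, 0.494 and 0.464 CPM in mutant leaves and 0.883, 0.812 and 0.774 in mutant roots, and at 2.12, 0.425 and 2.1 and 15.3, 13 and 12.5 in WT, so both doubted leaf libraries lay with the other genotype. Its interaction was -3.66 ± 0.92 (adjusted p = 0.0193), -1.91 without the 2 doubted leaf libraries, and not called without mutant leaf 1 alone. *CYP712A1* was at 0.412, 0.345 and 0.44 in mutant and 5.69, 4.76 and 5.08 in WT roots (interaction -3.81 ± 0.79, and -2.43 without the 2 doubted leaf libraries). Neither gene passed the filter in the mutant alone. *AT3G28420*, a putative membrane lipoprotein, was at 5.54, 5.03 and 4.61 and 0.0981, 0.264 and 0.563 in the mutant and at 0.97, 0.567 and 0.921 and 0.89, 0.661 and 0.652 in WT (interaction -3.84 ± 0.59). In all 10 genes named for the largest negative interactions, from *XTH7* to *AT3G28420*, every mutant root library was below every WT root library. For *BGLU1* the gap was small (0.0703 against 0.0791 CPM). The genes were picked by their interaction, which a low mutant root level makes more negative. The share of all genes of this kind was not counted.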

How the data were processed

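RNA was sequenced from 12 libraries, 3 each of WT and *pi4kß1ß2* roots and leaves. The deposited counts are whole numbers of reads per gene that the authors made with STAR against TAIR10 after trimming and rRNA removal, and reads with multiple hits were removed. Of the 3 deposited count columns, the one for the reverse strand was used, as it held 95.0 to 96.8% of the stranded gene counts. Rows of unmapped, multimapping, ambiguous and no-feature reads were left out (each under 2% of reads). Names and positions came from RefSeq TAIR10.1, which matched 37051 of 37336 identifiers.

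Genes with at least 1 CPM in 3 of 6 libraries were scaled by TMM and tested with the quasi-likelihood test of edgeR 4.0.16 (R 4.3.3), taking adjusted p-values (Benjamini-Hochberg) under 0.05 as calls. The authors' test was the likelihood ratio of edgeR, which here is an alternative. The interaction of genotype and organ was fitted over all 12 libraries and 20765 genes. DESeq2 1.42.0, other scalings, filters, counts without regard to strand, the replicate block and the leaving out of libraries were the other alternatives. On simulated counts for the organ comparison (20413 genes), 90 of 100 genes changed 2-fold and 98 of 100 changed 4-fold were recovered, with 9.18% of calls false. For the interaction (20765 genes) these were 55 and 81 of 100, with 2.86% false. In the simulated organ comparison all other genes had equal means in roots and leaves, whereas 78.6% were called in the data. The effect of scaling was therefore not tested by the simulation. Named genes were the 10 with the largest organ difference in each direction (10 CPM or more in the higher organ, groups not overlapping), the 10 with the largest interaction in each direction (5 CPM or more in a group), and in each list the 4 most abundant, the 2 with the largest organ difference and the 2 with the largest interaction, with every member of some short lists eligible. Genes outside this rule were named after their values were seen. Members, lists and tests were chosen with earlier results of these data known. Lists are described by counts and medians and were not tested.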

Additional observations from a re-analysis of the deposited data

Results flagged for a closer look

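An organ difference that differed between *pi4kß1ß2* and WT, by the interaction term of edgeR's quasi-likelihood test, was called for 2135 genes in the positive and 2507 in the negative direction. The values below are interactions on the log2 scale of genes described above, with 43 genes in all, and their causes were not tested.

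Among leaf metabolism genes the interaction was -1.83 for *PSBS*, -1.40 for *LHCA4*, -1.32 for *SHM1*, -1.15 for *CAT2*, -1.06 for *TPT*, -2.93 for *SWEET11*, -1.04 for *SWEET12*, -1.82 for *SUC2*, -1.46 for *GBSS1* and 1.17 for *SEX1*. *GER1* had -2.51 and *AS2* 1.54. Among genes higher in mutant roots it was 0.71 for *SCR*, -1.13 for *CYP86A1*, -1.32 for *CYP86B1*, -2.17 for *MRN1* and -1.29 for *PYK10*. It was -1.68 for *CYP79B3* and -0.46 for *AUX1*, which were not called between the mutant organs. The aquaporins *PIP2;1*, *PIP2;3* and *TIP2;3* had -1.27, -1.35 and -1.62. The immunity genes *GH3.12* and *SAG13* had 4.45 and 4.31.

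In the clock, the interaction was -1.09 for *CCA1*, -3.07 for *LHY*, 2.24 for *PRR5*, 1.11 for *LUX*, 1.09 for *GI*, 1.35 for *TOC1* and 2.21 for *ELF4*. Among the largest interactions it was 4.39 for *DIR5*, 4.33 for *CYP71A13*, 5.53 for *AT4G22485*, -4.09 for *XTH7*, -3.61 for *VSP2*, -3.91 for *AT4G17470*, -3.55 for *BGLU1*, -4.47 for *BGLU7*, -3.83 for *AT1G77520*, -3.84 for *AT3G28420*, -3.66 for *AT1G52820* and -3.81 for *CYP712A1*.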

How the results depend on the processing

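Scaled by library size alone, 12634 genes were higher in mutant roots and 4727 in mutant leaves, with 3745 higher in roots past 1.5, and the median of all genes was 0.57 in place of 0.00. That scaling also moved the share of positive calls from 50.0 to 72.8% in the organ comparison, and from 46.0 to 58.7% in the interaction, where it gave 2663 positive and 1871 negative calls. It turned the sign of the fitted organ difference to 0.36 for *RABA4B*, 0.14 for *PIP2;3*, 0.54 for *CYP79B3*, 0.54 for *AUX1*, 0.24 for *PI4Kß1* and 0.41 for *PI4Kß2*. Without mutant leaf 1 the values for *CYP79B3*, *AUX1* and *PI4Kß2* were 0.19, 0.0074 and 0.13. *CYP79B3* was at 0.014 without mutant root 1, and *GH3.12* at -0.11 without mutant leaf 3 and -0.11 without mutant root 1. Leaving out each mutant library in turn gave -0.15 to 0.19 for *CYP79B3*, -0.0897 to 0.0074 for *AUX1*, -0.11 to 0.49 for *GH3.12* and -0.31 to 0.13 for *PI4Kß2*, none of which passed the test.

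Leaving out each mutant library in turn gave 7363 to 8175 genes higher in roots and 7337 to 8048 higher in leaves, with 1924 to 2318 and 3177 to 3427 past 1.5. For the interaction, leaving out each of the 12 libraries gave 1284 to 2472 positive and 1985 to 3098 negative calls. The positive count was 1329 without WT root 1, 1343 without WT root 2, and 1300, 1321 and 1284 without mutant roots 1, 2 and 3. Without the 2 doubted leaf libraries, negative interactions numbered 3890, smaller differences 2860 and unresolved ones 1922. The cause was not tested.

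Replicate numbers did not pair the mutant organs, since deviations of same-numbered roots and leaves correlated at 0.10, -0.04 and 0.35. The replicate block gave 7813 and 7865 organ calls and 2065 and 2444 interaction calls, and under it the interaction of *CCA1* was -1.04 and not called. The other tests, scalings and filters gave 7182 to 8677 genes higher in roots and 7179 to 8727 higher in leaves. The alternatives were followed for only part of the genes named above. Of 119 called organ differences among these, 113 kept their call under every alternative in which the gene was tested, as did 37 of 43 interactions. The other genes, such as *PCC1*, *CRK12*, *SPL3*, *AT2G30670*, *CYP71A22*, *AT3G05727* and the neighbours of *AT4G22485*, are not in these counts. Depth limits the genes near 0 in roots, 28 of which had no count in any mutant root library.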
